A study of Oryctolagus cuniculus with 57 samples.

Results

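The genes described here are the 6 measured genes of the ISG15 and UBD tagging systems in the ileum of young rabbits: the tags ISG15 and UBD (also called FAT10), the enzymes UBA7, UBE2L6 and HERC5, which attach ISG15, and the protease USP18, which removes it. They were chosen by name as rows of the deposited value table whose probe is annotated to one of these symbols, and all 6 were found, through 8 of 33284 probes. The tests were run over 7975 genes, each read by 1 probe, of which these are 6. Of these, 4 (ISG15, HERC5, UBE2L6 and UBD) carry their gene symbol only through the study's own supplementary tables of DE genes, as do 1.30% of the genes tested. A gene named in that way was more likely to be DE from the start, so for the age changes the share of calls over all 31722 kept probes, named or not, is given beside that over named genes.

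The study followed what early ingestion of feces by suckling pups does to the ileum. Commercial hybrid rabbits (PS Hyplus 19 × PS Hyplus 39) of either sex had, in the nest, no feces (NF), feces of unrelated untreated does (FF), or feces of unrelated does that received tetracycline and tiamulin (FFab), and were sampled on day 35, at weaning, or on day 49. Total RNA of washed ileum from 1 rabbit was hybridized to 1 single-colour array, with 10 FF, 9 NF and 10 FFab rabbits on day 35 and 9 of each on day 49, 56 in all. Rabbits are named by the numbers that the labels give them (lap159 and so on). Feces were offered or withheld by nest, and litters are not in the labels, so rabbits of one group may share a nest and the p-values below measure the spread between rabbits only. Washed ileum is a mixed tissue: a higher level may stand for more RNA per cell or for more cells of a type that hold it, which cannot be told apart here.

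ISG15 and UBD are small proteins that cells join to other proteins in the way ubiquitin is joined. ISG15 is activated by UBA7, passed to UBE2L6 and placed on targets by the ligase HERC5, in a chain known mostly from human cells, and USP18 cuts it off again and also dampens signalling from the type I interferon receptor. All 5 genes are classical targets of interferon. UBD ends, like ubiquitin, in a pair of glycines, is induced mainly by interferon gamma together with tumour necrosis factor, and sends the proteins that carry it to the proteasome.

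The array probes that read these genes are shown because every value below is the brightness of one of them, and the probes also show which genes were read independently. Sequences are from the scanner files, 5′ to 3′.
ISG15: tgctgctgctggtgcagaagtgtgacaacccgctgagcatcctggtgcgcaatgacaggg
UBA7: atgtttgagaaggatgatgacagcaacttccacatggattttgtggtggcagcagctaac
UBE2L6: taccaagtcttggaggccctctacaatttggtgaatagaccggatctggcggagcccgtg
HERC5: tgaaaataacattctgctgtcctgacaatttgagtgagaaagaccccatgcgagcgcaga
USP18: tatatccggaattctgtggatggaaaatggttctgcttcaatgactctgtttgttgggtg
USP18, other probe: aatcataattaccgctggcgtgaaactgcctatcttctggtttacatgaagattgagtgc
UBD: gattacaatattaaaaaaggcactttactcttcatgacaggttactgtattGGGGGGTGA
Capitals in the UBD probe mark a pair of glycine codons and the stop codon, so this probe reads the very end of the coding sequence, where the tag's joining end is encoded. All are 60 bases long, and their GC content ran from 36.7% for UBD to 60% for ISG15. UBA7 was read by a pair of probes of identical sequence, 1 of which the files place at chr9:17334760-17335054, taken here as oryCun2, a span of 295 bases, longer than the probe. RefSeq has UBA7 on chromosome 10, and this difference was not examined. Over the 56 arrays that pair correlated at r = 0.995 (across arrays) and the pair of USP18 probes, which differ in sequence, at 0.994. No probe of another gene shared a run of 25 bases with any of them. Every member's probe was well above background on all 56 arrays and saturated on none.

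All 6 genes rose between day 35 and day 49 in FF rabbits, by 2.25-fold to 7.69-fold. In NF rabbits the 5 ISG15 genes had changes of 1.87-fold to 5.30-fold and in FFab rabbits of 1.21-fold to 2.42-fold, with 1.93-fold for UBD in NF and 3.096-fold in FFab, where it had the largest change of the 6, and none of these passed the adjusted threshold. The differences in age change between treatments did not pass it either. A gene was called when its Benjamini-Hochberg adjusted p (limma, over all 7975 genes) was under 0.05 and its log2 change above 0.5 in size, the thresholds of the study's methods. With these, 4.38% of the 7975 genes were called in FF (2.88% as higher), or 3.15% of all kept probes, against 6 of 6 members. ISG15, HERC5, UBE2L6 and UBD were named only through the study's DE tables, so their calls were likely from the start. The count of called members is therefore no test of the set. UBA7 and USP18, read by probes named without those tables, were called too.

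ISG15, the tag, had log2 intensities in FF rabbits of 10.77 (lowest), 12.32 (median) and 15.05 (highest) on day 35 and of 11.96, 14.40 and 17.44 on day 49. In NF rabbits they were 10.90, 11.84 and 14.69, then 12.91, 13.15 and 17.12. In FFab rabbits they were 11.03, 12.05 and 13.84, then 10.81, 12.58 and 15.14. The days overlapped in every treatment, but 8 of 9 NF rabbits on day 35 lay below all NF rabbits of day 49. The log2 change was 1.96 ± 0.60 (SE) in FF (3.88-fold, adjusted p = 0.0328), against 1.72 ± 0.62 in NF rabbits (0.474) and 0.53 ± 0.60 in FFab rabbits (0.900). The FF call is close to the threshold: it is lost without FF day 49 rabbit lap159 (log2 change 1.57, adjusted p = 0.103), and without FF day 35 rabbit lap87, lap88 or lap89 or FF day 49 rabbit lap158, lap180 or lap181, taken out one at a time (adjusted p from 0.0566 to 0.0761). In a fit to the FF arrays alone it was 0.0877.

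UBA7, the activating enzyme of ISG15, had FF values of 6.35, 7.44 and 9.29 on day 35 and 7.44, 9.08 and 11.41 on day 49 (lowest, median and highest log2 intensity). NF rabbits had 6.78, 7.66 and 9.35, then 8.06, 8.47 and 11.05, and FFab rabbits 6.57, 7.50 and 8.97, then 6.77, 8.18 and 9.75. The age change was 1.76 ± 0.40 in FF (adjusted p = 0.00316), 1.18 ± 0.41 in NF (adjusted p = 0.453), then 0.66 ± 0.40 for FFab (adjusted p = 0.694). Again 8 of 9 NF rabbits of day 35 were below all those of day 49.

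UBE2L6, the conjugating enzyme that takes ISG15 over from UBA7, had the smallest change. Its FF values were 8.66, 9.93 and 11.47 on day 35 and 9.47, 11.19 and 12.59 on day 49, its NF values 8.90, 9.72 and 11.19, then 10.31, 10.60 and 12.69, and its FFab values 9.02, 10.17 and 11.34, then 9.31, 10.19 and 11.32. FFab medians were thus almost level across the days, and no FFab rabbit of day 49 exceeded the highest of day 35. The change was 1.17 ± 0.35 in FF (2.25-fold, adjusted p = 0.0268), 0.91 ± 0.36 in NF (adjusted p = 0.598), then 0.27 ± 0.35 for FFab (adjusted p = 0.923). The FF call is lost without FF day 35 rabbit lap87 or lap89, or FF day 49 rabbit lap158, lap159 or lap181, one at a time (adjusted p from 0.0504 to 0.0815), and in a fit to the FF arrays alone (0.0613).

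HERC5 is the ligase that places ISG15 on newly made proteins. Its FF values were 8.80, 9.58 and 12.14 on day 35 and 10.35, 12.18 and 14.30 on day 49, and 9 of 10 FF rabbits of day 35 were below all 9 of day 49. NF rabbits had 8.73, 9.36 and 12.35, then 9.45, 11.86 and 14.06, and FFab rabbits 8.05, 9.71 and 11.57, then 8.20, 11.39 and 12.40. Its change was 2.48 ± 0.50 in FF (5.58-fold, adjusted p = 9.94e-04), 2.17 ± 0.51 in NF (adjusted p = 0.0765), then 1.28 ± 0.50 for FFab (2.42-fold, adjusted p = 0.459). In NF it stood 10th of 7975 genes by p, and it passes the adjusted threshold there without NF day 35 rabbit lap94 (adjusted p = 0.0118), NF day 49 rabbit lap206 (adjusted p = 0.0158) or FFab day 49 rabbit lap201 (adjusted p = 0.0341), and under 4 of 13 other settings of the processing.

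USP18, the protease, had FF values of 6.04, 7.41 and 10.46 on day 35 and 8.02, 10.56 and 13.09 on day 49. NF rabbits had 5.59, 7.15 and 10.47, then 7.89, 9.36 and 12.76, and FFab rabbits 5.84, 7.24 and 9.29, then 5.64, 8.56 and 10.84. All 9 FF rabbits of day 49 were above the FF median of day 35, and 7 of 10 of day 35 were below all of day 49. The change was 2.61 ± 0.64 in FF (6.08-fold, adjusted p = 0.00712), 2.41 ± 0.66 in NF (5.30-fold, adjusted p = 0.219), then 1.08 ± 0.64 for FFab (2.12-fold, adjusted p = 0.689). The other USP18 probe gave 2.62, 2.44 and 1.18. Without NF day 35 rabbit lap94 the NF change of USP18 was 2.80 and passed (adjusted p = 0.0488).

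UBD, the tag induced by interferon gamma and tumour necrosis factor, had the largest estimate of the 6 in FF and a pattern of its own on day 35. FF rabbits had 8.08, 10.69 and 12.53 on day 35 and 11.65, 13.96 and 14.55 on day 49, with 7 of 9 rabbits of day 49 above every FF rabbit of day 35. NF rabbits had 10.68, 11.51 and 14.93, then 10.93, 13.35 and 14.28, and no NF rabbit of day 49 exceeded the highest of day 35. FFab rabbits had 7.93, 12.17 and 14.28, then 9.81, 13.19 and 14.67.
On day 35 the FFab values of UBD fell apart, with 4 rabbits between 7.93 and 9.47 and 6 between 12.1 and 14.3. The change with age was 2.94 ± 0.73 in FF (7.69-fold, adjusted p = 0.00740), 0.95 ± 0.75 in NF (1.93-fold, adjusted p = 0.986), then 1.63 ± 0.73 for FFab (adjusted p = 0.534). The lower FF level on day 35 was a difference of -1.51 ± 0.73 from NF, with an unadjusted p from limma of 0.0436 and an adjusted p of 0.626. On day 49 the FF minus NF difference of UBD was 0.48 ± 0.75.

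**Figure D1:**
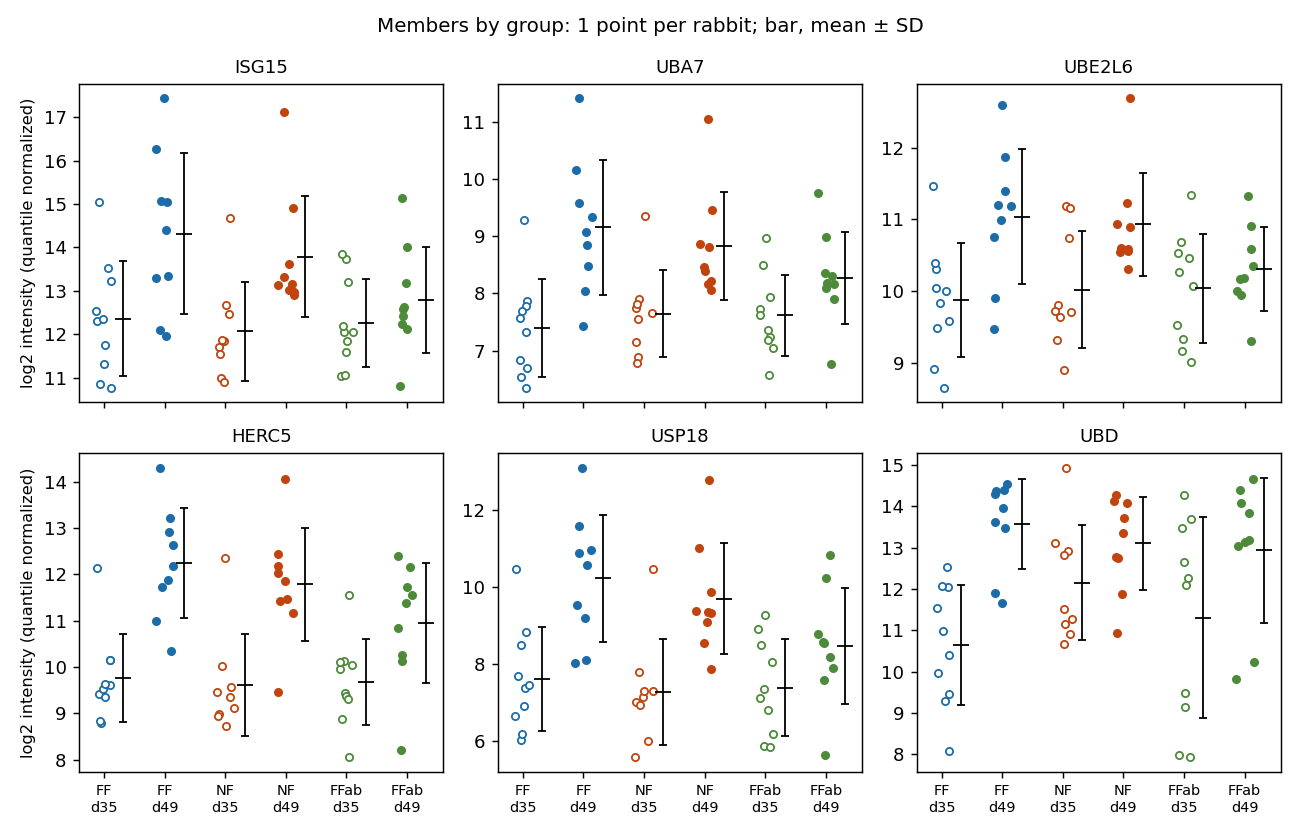
Log2 intensity of each gene (vertical axis) in the 6 groups (horizontal axis), 1 point per rabbit, open on day 35 and filled on day 49, with the group mean and SD as a bar beside it (n = 9 or 10). The highest FF rabbit of day 49 reached 17.44 for ISG15, and the UBD values of FFab rabbits on day 35 lie in a lower set of 4 and an upper set of 6.

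None of the 6 genes was called in NF, where 0.0376% of the 7975 genes and 0.0158% of all kept probes were, or in FFab, where 0.0752% and 0.0158% were. At an unadjusted p under 0.05, 5 of 6 passed in NF (against 6.06% of all genes tested) and 2 of 6 in FFab, namely HERC5 and UBD (against 8.40%). The shares of all kept probes were 5.97% and 8.36%. Those 5 in NF are the ISG15 genes, which are correlated from rabbit to rabbit, so they are not separate results. Averaged over the treatments, all 6 rose, against 3.51% of the 7975 genes called in either direction and 2.43% as higher (2.51% and 1.76% of all kept probes): USP18 by 2.03 ± 0.37 on the log2 scale (adjusted p = 1.31e-04), HERC5 by 1.98 ± 0.29 (adjusted p = 4.20e-06), UBD by 1.84 ± 0.42, ISG15 by 1.40 ± 0.35, UBA7 by 1.20 ± 0.23 and UBE2L6 by 0.78 ± 0.20. The largest adjusted p of the 6 was 0.00573, for UBE2L6. Here too, calls of ISG15, HERC5, UBE2L6 and UBD were likely from the start, because the study's DE tables gave their names. The median change of the 6 was 2.22 in FF, 1.45 in NF and 0.87 in FFab, and that of all genes tested was -0.011, -0.0033 and -0.0030.

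**Figure D2:**
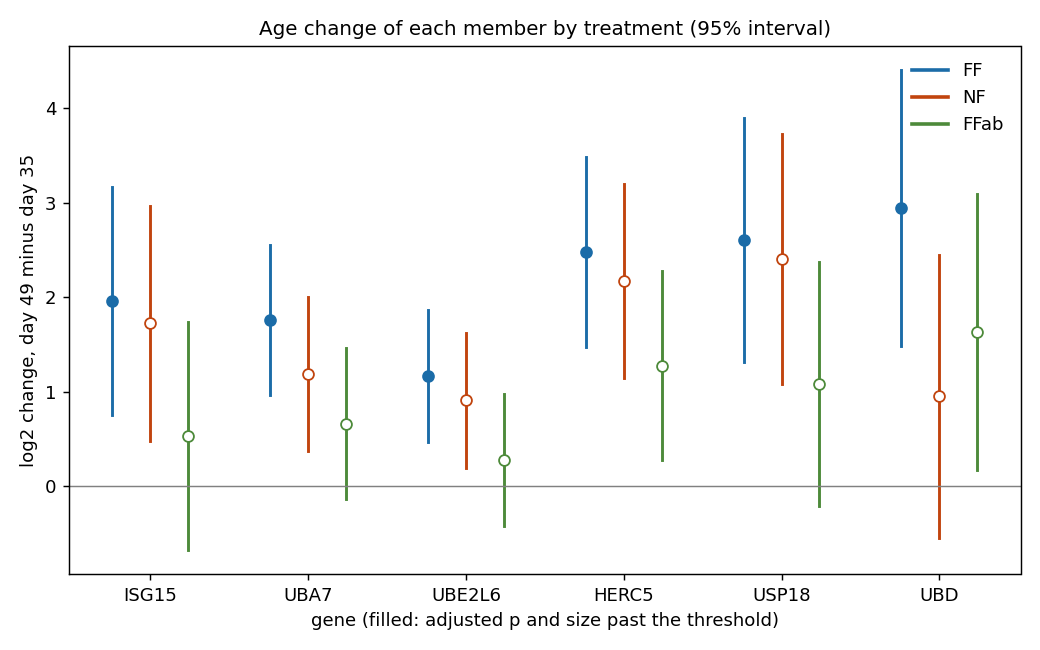
Log2 change from day 35 to day 49 (vertical axis) for each gene (horizontal axis) and treatment, with its 95% interval from limma, filled where the gene was called. The 6 FF points are filled and run from 1.17 to 2.94, and the FFab point is the lowest of each gene except UBD, whose NF point is.

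The difference between treatments was tested directly as the difference of age changes, and 0 of the 7975 genes was called in any of the 3 such contrasts (0% of genes in each). FF and NF are set against each other first, then each against FFab, and these contrasts share their FF, NF or FFab rabbits. For the 5 ISG15 genes the FF minus NF difference ran from 0.20 for USP18 (95% interval -1.65 to 2.05) to 0.57 for UBA7 (-0.57 to 1.72), so intervals held both 0 and differences above a doubling. For UBD it was 1.99 ± 1.05 (-0.10 to 4.09, unadjusted p from limma 0.0620, adjusted 0.999). The FF minus FFab difference was 1.43 ± 0.85 for ISG15, 1.52 ± 0.91 for USP18, 1.21 ± 0.71 for HERC5, 1.097 ± 0.562 for UBA7, 0.90 ± 0.49 for UBE2L6 and 1.31 ± 1.03 for UBD, with unadjusted p from limma between 0.0564 and 0.209. The NF minus FFab difference was positive for the 5 ISG15 genes, from 0.52 to 1.33, and -0.68 ± 1.05 for UBD, with every interval holding 0.

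Read within day 35, the FF minus NF difference of the 5 ISG15 genes ran from -0.25 for UBA7 to 0.33 for USP18 with SEs of 0.35 to 0.64, and every interval held 0. None of the 6 was called there, against 0.0376% of the 7975 genes. On day 49 the mean level was highest in FF for all 6 genes, then NF, then FFab. ISG15, HERC5, UBE2L6 and UBD were named only through the study's DE tables, which mostly hold genes that changed with age in FF. A high FF level on day 49 was thus likely from the start, and this order is no test of the set. The FF minus FFab difference on day 49 was 1.74 ± 0.66 for USP18, 1.53 ± 0.62 for ISG15, 1.28 ± 0.51 for HERC5, 0.88 ± 0.41 for UBA7, 0.73 ± 0.36 for UBE2L6 and 0.65 ± 0.75 for UBD. An unadjusted p under 0.05 was reached by 5 of 6, UBD being the exception, against 2.31% of all genes tested and 1.90% of all kept probes. Those 5 are the ISG15 genes, which are correlated from rabbit to rabbit, so they are not separate results. No gene of the 7975 was called (0%, adjusted p of the 6 = 1). Neighbours in that order did not differ beyond their spread: FF minus NF on day 49 was 0.11 to 0.53 and NF minus FFab 0.17 to 1.22, each with an interval that held 0.

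Each slide held arrays of all 6 groups, save 1 that had no NF array of day 35 among the 56, so the change with age could be read within 9 slides in FF and FFab and 8 in NF. The mean within-slide difference was positive for every gene in every treatment. For ISG15 it was 1.87 over 9 slides in FF, 1.51 over 8 in NF and 0.55 over 9 in FFab, and the day 49 rabbits were higher on 8, 8 and 8 of these slides. For UBD it was 2.89, 1.14 and 1.66, with day 49 higher on 8 of 9, 5 of 8 and 6 of 9 slides.

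The spread within a group was wide and shared by the same rabbits. FF day 49 rabbit lap159 was the highest of its group for all 6 genes, and FFab day 49 rabbit lap201 the lowest of its group for all 6. FF day 35 rabbit lap102, NF day 49 rabbit lap170, FFab day 35 rabbit lap108 and FFab day 49 rabbit lap185 were each the highest of their group for the 5 ISG15 genes, but ranked 3rd, 5th, 2nd and 7th for UBD. NF day 49 rabbit lap206 was the lowest of 9 for USP18, HERC5 and UBA7 and the highest of 9 for UBD. In NF on day 35, rabbit lap94 was the highest for ISG15, USP18, HERC5 and UBA7, whereas rabbit lap93 was the highest for UBE2L6 and UBD. The SD within groups was 1.34 for ISG15, 1.43 for USP18, 1.11 for HERC5, 0.88 for UBA7, 0.77 for UBE2L6 and 1.62 for UBD, on the log2 scale.

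**Figure D3:**
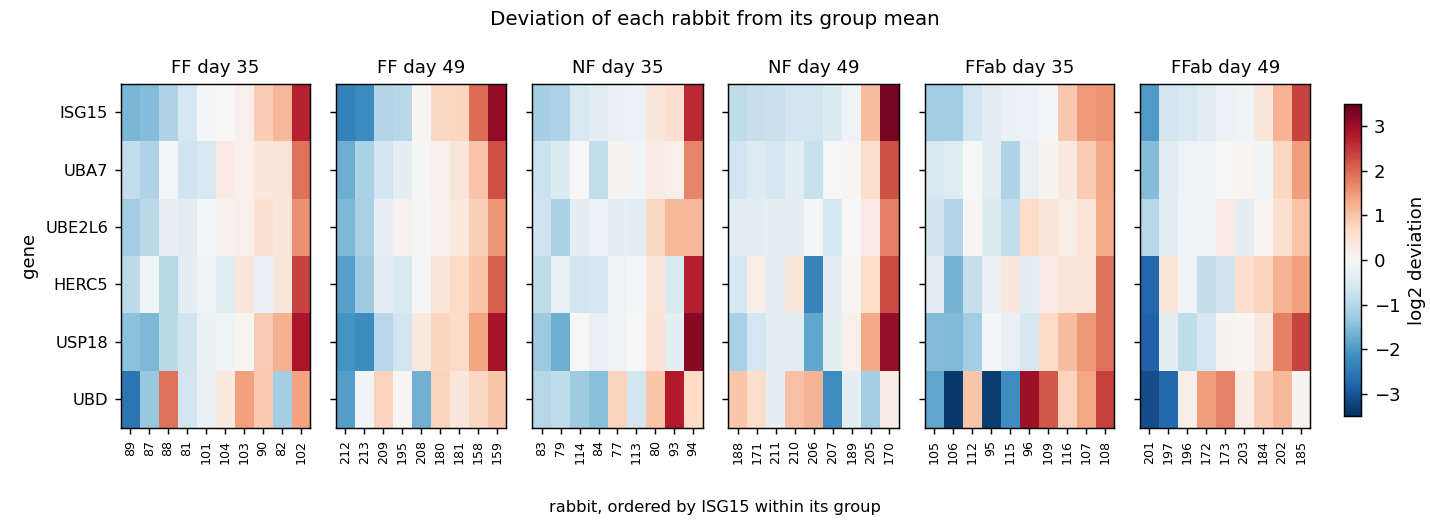
Deviation of each rabbit from its group mean (colour, log2 scale) for the 6 genes (rows), with the rabbits of each group ordered by ISG15 (columns). Columns for rabbits lap159, lap170 and lap102 are red in the 5 upper rows, and the UBD row follows another order, as for rabbit lap206.

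To ask whether tag, enzymes and protease moved together in single rabbits, each value was taken as its deviation from the group mean, so that a shared age change could not make a correlation, and the 15 pairs were correlated over the 56 arrays. P-values are from two-sided permutations of arrays within groups (100000 resamples), adjusted over the 15 pairs. ISG15 correlated with its protease USP18 at r = 0.962 (rho = 0.945) and with its ligase HERC5 at r = 0.855 (rho = 0.803). With UBA7 it correlated at r = 0.946 and with UBE2L6 at r = 0.908. Ligase and protease correlated at r = 0.902 (rho = 0.838). All of these had a permutation p of 1e-05, the smallest that the resamples can give (adjusted p = 1.36e-05).

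Over the 10 pairs of the 5 ISG15 genes r ran from 0.741 (HERC5 with UBE2L6) to 0.962, and the same pairs ran from 0.723 to 0.955 without the 2 arrays farthest from the median of the first gene, from 0.674 to 0.955 after slide means were removed too, and from 0.581 to 0.996 within single groups. Spearman's rho ran from 0.632 to 0.945. ISG15 and USP18 stayed above 0.93 in each of the 6 groups, with the lowest r of 0.938 in NF on day 49. Per unit of log2 ISG15, USP18 varied by 1.03 ± 0.04 (jackknife SE over arrays), HERC5 by 0.71 ± 0.06, UBA7 by 0.62 ± 0.03 and UBE2L6 by 0.52 ± 0.03. USP18 thus followed ISG15 in near proportion from rabbit to rabbit, and the enzymes over a narrower range.

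UBD was coupled to the others less tightly. Its r was 0.407 with ISG15 (permutation adjusted p = 0.00136), 0.363 with USP18, 0.335 with HERC5, 0.446 with UBA7 and 0.634 with UBE2L6. By rho the HERC5 pair had 0.232 and no longer passed (permutation adjusted p = 0.0912), and its r without the 2 farthest arrays was 0.262. The correlation of ISG15 with USP18 exceeded that with UBD by 0.554 ± 0.085 (jackknife SE over arrays), and that of UBE2L6 with ISG15 exceeded that of UBE2L6 with UBD by 0.274 ± 0.078, both comparisons being chosen after the values were seen. In NF on day 49 the UBD pairs had r from -0.316 to 0.0861, and from -0.163 to 0.118 without rabbit lap206, over 8 rabbits. In the other groups the UBD pairs were positive, the highest being UBE2L6 with UBD at 0.916 in FFab on day 35. The first principal component of the 6 centred genes held 79.8% of their variance, and that of the 5 without UBD held 90.7%.

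**Figure D4:**
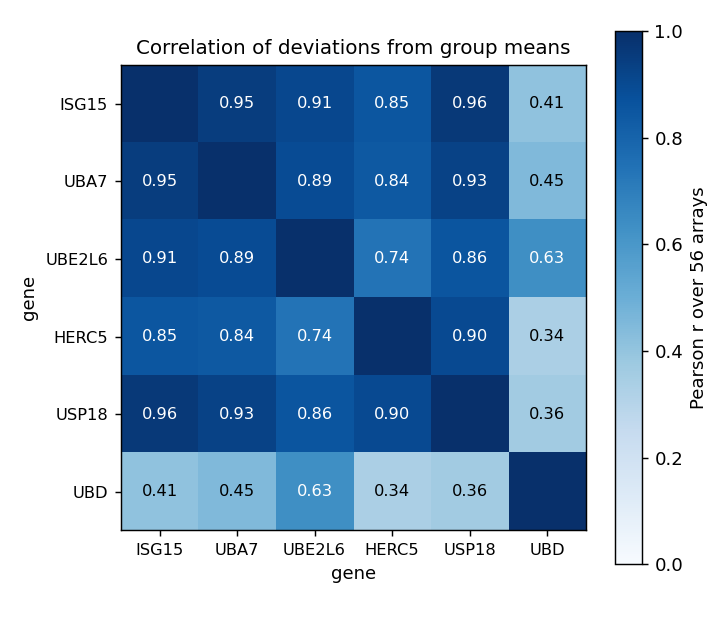
Pearson r of the deviations from group means over 56 arrays (colour and printed value) for each pair of the 6 genes. The block of 5 ISG15 genes runs from 0.74 to 0.96 and the UBD row from 0.34 to 0.63.

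**Figure D5:**
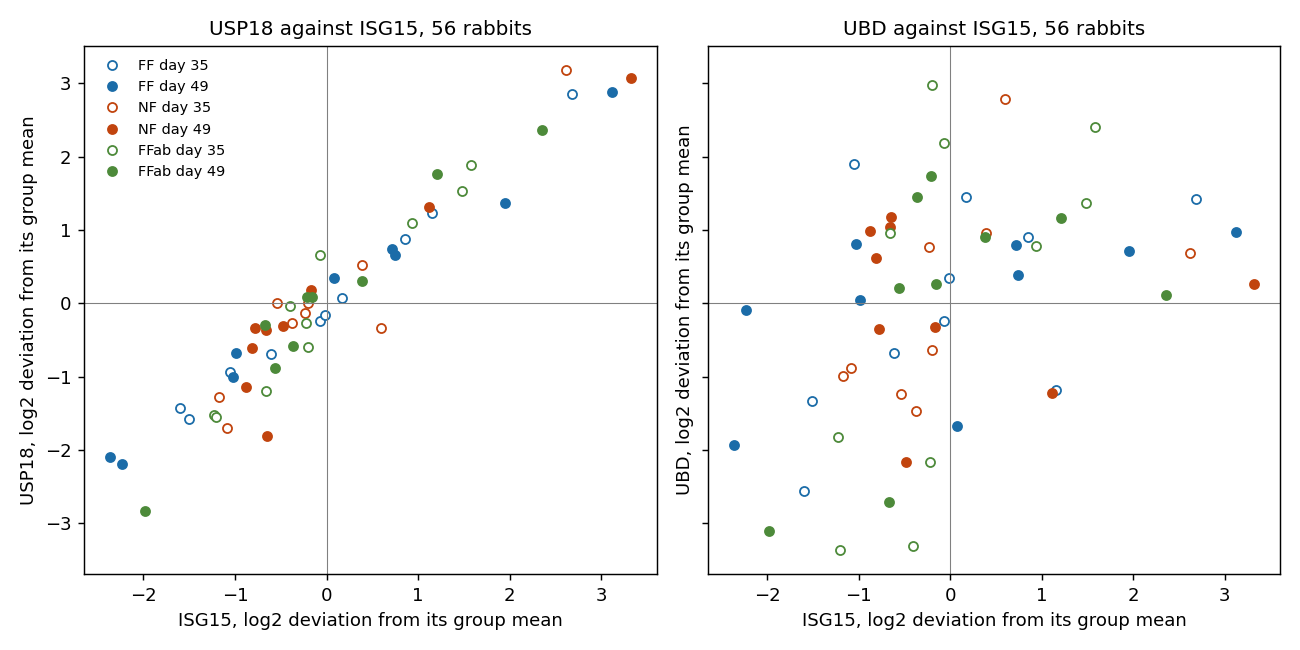
Deviations from the group mean on the log2 scale, USP18 (left) and UBD (right) against ISG15, 1 point per rabbit, coloured by treatment, open on day 35 and filled on day 49. The USP18 points lie along a line (r = 0.962), and the UBD points scatter widely (r = 0.407).

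The genes most like each member were found by the same centred correlation over 56 arrays among the other 7974 genes, as a description. The gene most like ISG15 was USP18, followed by IFIT3 (0.960), DDX58 (0.954), UBA7 and XAF1 (0.920). IFIT3 is an interferon-induced antiviral protein and DDX58 encodes the RNA sensor RIG-I. Those most like HERC5 were USP18, DDX58 (0.886), IRF7 (0.881), XAF1 (0.870) and IFI44 (0.867), and those most like UBA7 were ISG15, DDX58, XAF1, USP18 and SP100 (0.926). For USP18 they were ISG15, DDX58 (0.933), UBA7, IFIT3 (0.923) and LOC100345657 (0.919). For UBE2L6 they were LOC100345657 (0.914), ISG15, LOC100349005, LOC100346985 and PARP14 (0.900).
UBD had another set: RLA-A2 (0.857), a rabbit MHC class I gene, PSMB8 (0.831), a subunit of the immunoproteasome, LOC100328967 (0.815), LOC100338822 (0.788) and TAP1 (0.772), which carries peptides to MHC class I. Among all genes UBE2L6 stood 39th in likeness to UBD and ISG15 296th, whereas the other 4 ISG15 genes stood 1st to 17th in likeness to ISG15. The median r over the other 7969 genes was between -0.02 and 0.01 for each member. Besides members, DDX58, IRF7, SP100 and RLA-A2 carry their symbol only through the study's DE tables, so these rankings favour genes that were DE.

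Of 25 other genes listed for both tagging systems (further proteases, ligases, receptors and shuttle proteins of ISG15 and UBD), 15 were measured, and 1 rose in FF, where 2.88% of all genes tested did, while 0 were called in NF, in FFab or on average, with a median change in FF of 0.05. The 1 was NUB1, which binds UBD and speeds the turnover of UBD and its targets. NUB1 values in FF ran from 12.81 to 13.46 on day 35 and from 12.93 to 14.33 (median 13.73) on day 49, a change of 0.61 ± 0.15 (adjusted p = 0.00642), against 0.06 ± 0.15 in NF and 0.00 ± 0.15 in FFab. Its day 35 means were 13.06 in FF, 13.42 in NF and 13.44 in FFab, and those of day 49 were 13.67, 13.48 and 13.44. The difference in age change was 0.55 ± 0.21 for FF minus NF and 0.60 ± 0.21 for FF minus FFab, neither called. UBE2Z, an E2 that carries UBD, changed by -0.29 ± 0.17 in FF (adjusted p = 0.334). The partner enzyme UBA6 and the ISG15 ligase HERC6 were not analysed here.

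Among 24 measured genes of 46 listed for ubiquitin and other ubiquitin-like tags and their enzymes, 1 was called, against 4.38% of all genes tested in FF: UBB, a polyubiquitin gene, which rose in FF by 0.63 ± 0.14 (adjusted p = 0.00239). Its changes in NF and FFab were 0.23 and 0.25, and the median of the 24 in FF was -0.03. None of the 12 measured relatives of HERC5 (of 14 listed) was called in any age contrast by limma, and the smallest p on average was that of HERC4, with a change of 0.13 ± 0.04, below the size threshold. At an unadjusted p under 0.05, 2 of the 12 passed in FF (HERC4 at 0.0247 and SMURF2 at 0.00735), where 21.0% of all genes tested did.

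Of the interferon signalling genes, 12 of 20 listed were measured, and among those that rose in FF and on average were IRF7, a transcription factor that interferon induces, by 1.90 ± 0.51 in FF (adjusted p = 0.0123), IRF9 by 1.13 ± 0.24 (adjusted p = 0.00168) and IRF1 by 0.98 ± 0.28 (adjusted p = 0.0186). IRF9 is part of the complex that carries the interferon signal to DNA. In NF the changes of IRF7, IRF9 and IRF1 were 1.87, 0.36 and 0.47, and in FFab 0.61, 0.30 and 0.33, none of them called. The receptor gene IFNAR1 had 0.13 ± 0.16 in FF (adjusted p = 0.732). IRF7, UBB and IFNG are also named only through the study's DE tables. Per rabbit, IRF7 correlated at 0.895 with ISG15 and 0.274 with UBD. For IRF9 the values were 0.425 and 0.338, and IRF1 went the other way, with 0.432 for ISG15 and 0.570 for UBD.

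Of the inputs known to induce UBD, 5 of 11 listed were measured. IFNG, which encodes interferon gamma, had 2.40, 3.89 and 5.05 in FF on day 35 and 3.67, 4.91 and 7.81 on day 49 (log2 intensity). No change or correlation is given for it, because its probe was dim, well above background on 2 of 10 FF arrays of day 35, 7 of 9 of day 49 and 30 of 56 in all, and it passed the brightness filter only through the FF and NF groups of day 49, where it is high. TNFRSF1A, a receptor of tumour necrosis factor, rose in FF by 0.72 ± 0.22 (adjusted p = 0.0300) and had 0.56 ± 0.23 in NF and 0.41 ± 0.22 in FFab. TNF itself had 0.35 ± 0.40 in FF (adjusted p = 0.702). Per rabbit, TNF correlated at 0.0190 with UBD and 0.186 with ISG15, and TNFRSF1A at 0.433 with UBD and 0.705 with ISG15.

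Markers of the cell types that ileum can hold were read beside these genes, as summed linear intensity. Enterocyte markers (9 of 15 measured) were bright on every array, from 634819 to 1187682, with FF medians of 910741 on day 35 and 982686 on day 49, and those of T and NK cells (9 of 16 measured) 3557 (2506 to 5523) and 5195 (3291 to 7474). The corresponding T and NK medians were 3747 and 4584 in NF and 3585 and 4186 in FFab. Macrophage and dendritic cell markers (7 of 12) had FF medians of 5451 and 6003. NF medians were 5537 and 5741, and FFab medians 5277 and 5419. Their log2 changes in FF went both ways: XCR1 0.85, ITGAX 0.56, CD68 0.34, ITGAM -0.07, CSF1R -0.22, MRC1 -0.24 and CD14 -0.40. B and plasma cell markers (5 of 12) went from 2442 to 4874 in FF, with 2205 to 4235 in NF. In FFab they went from 2502 to 3962. Among them IGHM (log2 change 1.17 in FF) and TNFRSF17 (0.95) are named only through the study's DE tables. POU2AF1 had 0.45, MS4A1 0.44 and CD79B 0.11. Fat markers (3 of 8) went from 4195 to 13023 in FF, 3842 to 10967 in NF and 4414 to 12268 in FFab. Red blood cell markers (4 of 8) went from 1009 to 359 in FF, 585 to 316 in NF and 508 to 312 in FFab. By gene, their log2 changes in FF were -2.49 for CA1, -0.67 for ALAS2, -0.15 for SLC4A1 and -0.08 for EPB42. CA1 is also named only through the study's DE tables. Per rabbit, the deviation of the T and NK sum correlated with those of the 6 genes at 0.436 to 0.542, and that of the macrophage and dendritic cell sum at 0.514 to 0.620 with the 5 ISG15 genes and 0.161 with UBD. For the fat sum it was -0.0979 to 0.149, for the red blood cell sum -0.445 to -0.140, for the enterocyte sum -0.244 to 0.00937 and for the B and plasma cell sum 0.0646 to 0.420. Muscle markers (7 of 10), from the wall of the gut, went from 132024 to 204491 in FF, 223823 to 190120 in NF and 180333 to 231277 in FFab, and their sum correlated with the 6 genes at -0.410 to -0.189. The muscle marker ACTN2 is likewise named only through the study's DE tables. Markers of stroma and vessels (5 of 7) went from 66670 to 62224 in FF, 70196 to 57112 in NF and 69129 to 60760 in FFab, with correlations of -0.474 to -0.190. The part of these cells in the age changes and in the coupling was not tested.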

How the data were processed

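Single-colour Agilent arrays of rabbit ileum were deposited as scanner files with the intensity of each spot and as a table of log2 values that the authors normalized; the submitters' processing notes name Agilent Feature Extraction 10.7.3.1. One of 57 arrays, NF day 35 rabbit lap78, was set aside following the methods of the study. The 57 arrays lay on 9 slides of 6 to 7 arrays each, scanned on 1 day. From the deposited intensity (background-subtracted processed signal), spots flagged as outliers were left out, spots of a probe were averaged, and log2 values were quantile normalized with limma 3.58.1 in R 4.3.3. Of 42089 probes, 31722 were kept because 50% or more of their spots were well above background in 75% or more of any group's arrays. Genes with several probes were read by the probe of median level, which left 7975 genes. Own values correlated with those of the authors' log2 table at a median r of 0.989.

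One mean per group was fitted with limma, and contrasts were adjusted by Benjamini-Hochberg. Gene symbols came from identifiers and accessions in the files, through RefSeq names, or from the study's supplementary tables. Columns for fold changes or p-values of the study were not used. The number of arrays limits the precision. On simulated arrays with 200 of 7975 genes changed in the FF age contrast, 82.0% of changes of 1 log2 unit and 92.0% of changes of 2 were recovered. The changed genes were drawn at random from all genes, each with its own SD. These shares therefore do not give the recovery for the 6 members, whose SDs within groups ran from 0.77 to 1.62. A member change that was not called is thus not shown to be absent. The 6 genes, the gene lists and the tests were chosen with earlier results of these data known. Named beyond the 6 were the genes called in any contrast from each pathway list, or else the pair with the smallest p on average, and the 5 genes most like each member; IFNAR1, UBE2Z and TNF were added for their role, and 1 called gene of the interferon signalling list is not reported here. Alternatives were the deposited log2 table, normexp background correction (offset 50), 75th percentile scaling, other filters on dim probes, other probe choices, flagged spots kept, slide as a fixed or random block, array weights, fewer or more arrays, and leaving out each array.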

Additional observations from a re-analysis of the deposited data

Results flagged for a closer look

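Each of the 6 genes was looked at in each of the 6 groups, 36 sets in all, for a rabbit that stood apart from the rest of its group, as measured by its gap to the nearest rabbit over the range of the group. Chance alone marks about 1 in 20 sets if values are normally distributed, which was not checked. In these data 9 sets were marked, all at the high end and all from 3 rabbits, none of them for UBD. Since the 5 ISG15 genes are tightly correlated, these are not separate events. In NF on day 35, rabbit lap94 stood apart for HERC5 at 12.35 against 10.02 for the next rabbit (0.643 of the range), for UBA7 at 9.35 against 7.91 (0.561), for USP18 at 10.47 against 7.80 (0.546) and for ISG15 at 14.69 against 12.67 (0.533).

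In NF on day 49, rabbit lap170 stood apart for UBE2L6 at 12.69 against 11.23 (0.614 of the range), for UBA7 at 11.05 against 9.45 (0.534) and for ISG15 at 17.12 against 14.91 (0.525). In FF on day 35, rabbit lap102 stood apart for HERC5 at 12.14 against 10.15 (0.594) and for UBA7 at 9.29 against 7.87 (0.483).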

How the results depend on the processing

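The count of called members was unchanged under the 12 or 13 other settings for every contrast but the age changes in NF and in FF. In NF 0 members were called in the fit reported and 1, HERC5, under 4 settings: the authors' log2 table (adjusted p = 0.0473), all 57 arrays (0.0397), slide as a random block (0.0388) and array weights (0.00863). Leaving out each array in turn gave 0 to 2 called members in NF (1 without NF day 49 rabbit lap206 or FFab day 49 rabbit lap201, 2 without NF day 35 rabbit lap94), 4 to 6 in FF and 6 in each fit on average; no other contrast gave any. In FF only 4 were called when the fit held FF arrays alone, ISG15 (adjusted p = 0.0877) and UBE2L6 (0.0613) being lost. Small treatment differences that were never called turned sign: NF minus FFab on day 35 was 0.0125 for HERC5 and 0.0184 for UBE2L6 with slide as a fixed block, and 0.0273 for USP18 and 0.0164 for UBE2L6 with array weights, and on day 49 it was -0.128 for UBD with array weights. The cause was not tested. Among 15 pairs, 14 or 15 passed under the 11 other settings. The highest group mean was FF on day 49 for all 6 genes, and within-slide age changes were positive in 18 of 18 gene and treatment pairs, under the log2 table, normexp and 75th percentile scaling too. A high FF mean on day 49 was likely from the start for ISG15, HERC5, UBE2L6 and UBD, named only through the study's DE tables. The within-slide alternatives were added after seeing the data. No paired analysis was possible because rabbit numbers are unique to each rabbit and pair no arrays across groups. Probe brightness did not limit the members, all above background on 56 of 56 arrays, but did limit IFNG.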

Other observations

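NF day 35 rabbit lap78, which the methods of the study set aside and which is in none of the comparisons, had a UBD log2 intensity of 7.66, below the 10.67 to 14.93 of the other NF rabbits of that day, and HERC5 at 8.46, below their 8.72 to 12.34. Its ISG15 (11.48), USP18 (7.20), UBA7 (7.74) and UBE2L6 (9.20) lay within the range of the others. These values come from a normalization of all 57 arrays.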
